A study of Mus musculus with 6 samples.

Results

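Transcripts of 10 genes that take up, store, export and release iron were followed in LSK cells (lineage-negative, Sca-1+, c-Kit+), the bone marrow fraction that holds haematopoietic stem cells and early progenitors. The members are *Tfrc*, *Slc11a2*, *Steap3*, *Fth1*, *Ftl1*, *Slc40a1*, *Ireb2*, *Aco1*, *Ncoa4* and *Slc25a37*, taken by gene name on the array. They are 10 of 37074 gene names and were read by 21 probes, of which 19 passed the filter on dim signal, so that each member kept at least 1 tested probe among 20778 genes tested. The study asked what loss of *Atg5*, a gene needed to form autophagosomes, does to blood stem cells soon after birth. RNA of 3 control and 3 Atg5f/f;Vav samples was hybridised to 1-colour Agilent arrays, where a brighter spot means more of the transcript its probe matches. All samples came from bone marrow of C57BL/6 mice at P6 to P8. Both groups carried Vav-iCre, which is active in blood cells in general and not in stem cells alone. Control mice had wild-type *Atg5* (Atg5w/w), and Atg5f/f;Vav mice had *Atg5* with both alleles flanked by loxP sites. The labels do not say whether a sample was 1 mouse or several, so p-values measure the spread between these samples, which may be technical.

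Iron bound to transferrin enters a cell through the transferrin receptor, is reduced in the endosome and is carried to the cytosol, where it is used, stored in ferritin or exported. Iron regulatory proteins bind hairpins in these messages when iron is scarce, which stabilises the transferrin receptor message and blocks translation of ferritin and ferroportin. Ferritin is returned to use by ferritinophagy, in which the receptor NCOA4 brings it to the autophagosome, and erythroid precursors draw the most iron of all blood cells. An array reads messages, so neither ferritin protein nor iron was measured.

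All values are log2 signal relative to the 75th percentile of each array, so 0 is the level of that percentile, and a difference of 1 is a doubling. A level is not compared between probes. Between 57.6% and 58.2% of probes were well above background on the control arrays, and between 51.6% and 54.8% on the arrays labelled Atg5f/f;Vav. All arrays lay on 1 slide, with the groups in different slide rows, so the row on the slide and the genotype cannot be told apart. The *Atg5* probe, which starts at base 2251 of the transcript, was 0.54 higher on the arrays labelled Atg5f/f;Vav (standard error 0.12, limma adjusted p = 0.0209). Whether it lies in the deleted part was not determined, and each direction rests on the labels. Of the gate markers, *Ly6a*, which encodes Sca-1, was 1.57 higher (adjusted p = 0.00623 in limma), and *Kit* differed by -0.38 with an adjusted p of 0.0563. The summed linear signal of 14 erythroid markers was 275.1 to 570 on the control arrays and 136.6 to 222.3 on the others, but *Hba-a1* alone made up 76.6% to 84.6% of it on the control arrays. Without *Hba-a1* the sum was 64.26 to 91.6 on the control arrays and 72.55 to 144.8 on the others, which overlap. In a bulk sample, fewer cells of a type and less RNA per cell cannot be told apart.

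Several members were read at more than 1 place. Probe sequences are shown for these members, and for the 1 tested probe of *Fth1* and of *Slc40a1*. Each is 60 bases long in the array design, in lower case and 5′ to 3′. Probes near the end of a transcript are given by their first 30 bases.
Tfrc, base 1228: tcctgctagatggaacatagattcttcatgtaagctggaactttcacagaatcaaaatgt
Tfrc, base 4288, first 30 bases: tgagcaagatcacattaacaaagactagtt
Slc11a2, base 253: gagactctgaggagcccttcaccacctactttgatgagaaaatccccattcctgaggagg
Slc11a2, base 4055 of the other transcript, first 30 bases: tgttccctattcacttgattgtcactgaaa
Slc40a1, base 2980, first 30 bases: ttctagagcaacaatagtcacaaaagttcc
Fth1, base 825, first 30 bases: atgtcaggctgccttcatcttttctataag
Ftl1, base 462: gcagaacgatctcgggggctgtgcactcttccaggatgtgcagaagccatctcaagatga
Aco1, base 686: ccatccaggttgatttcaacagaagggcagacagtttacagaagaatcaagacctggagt
Slc25a37, base 304: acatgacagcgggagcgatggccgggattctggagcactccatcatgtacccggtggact
Slc25a37, base 815: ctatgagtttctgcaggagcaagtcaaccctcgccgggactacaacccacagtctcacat

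Of the 10 members, 6 were higher in Atg5f/f;Vav LSK cells, 1 was lower and 3 did not pass an adjusted p of 0.05 in limma. Over all genes tested 34.1% passed, 18.7% as higher and 15.3% as lower. The members that rose were the uptake genes *Tfrc*, *Slc11a2* and *Steap3*, the exporter *Slc40a1*, the ferritin heavy chain gene *Fth1* and the iron regulatory gene *Aco1*. The mitochondrial importer gene *Slc25a37* fell. The median difference over the 10 members was 0.57, beside -0.032 over all genes. By probe, 10 of 19 tested were higher, 2 lower and 7 not past the threshold, where 34.4% of all probes passed, 17.3% as higher and 17.1% as lower. The groups did not overlap for 7 members that were higher and 1 that was lower, beside 29.6% and 26.3% of all genes, or 55.9% in either direction. With each array's percentile taken over probes detected on all arrays, the median of all probes moved by -0.21, and the split over all probes went from 5540 higher and 5484 lower to 3371 higher and 10088 lower. Under that scaling 4 members were higher and 1 lower. Without control replicate 1, or without control replicate 2, 0 members passed in limma, although 7 had an unadjusted p below 0.05 each time.

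**Figure D1:**
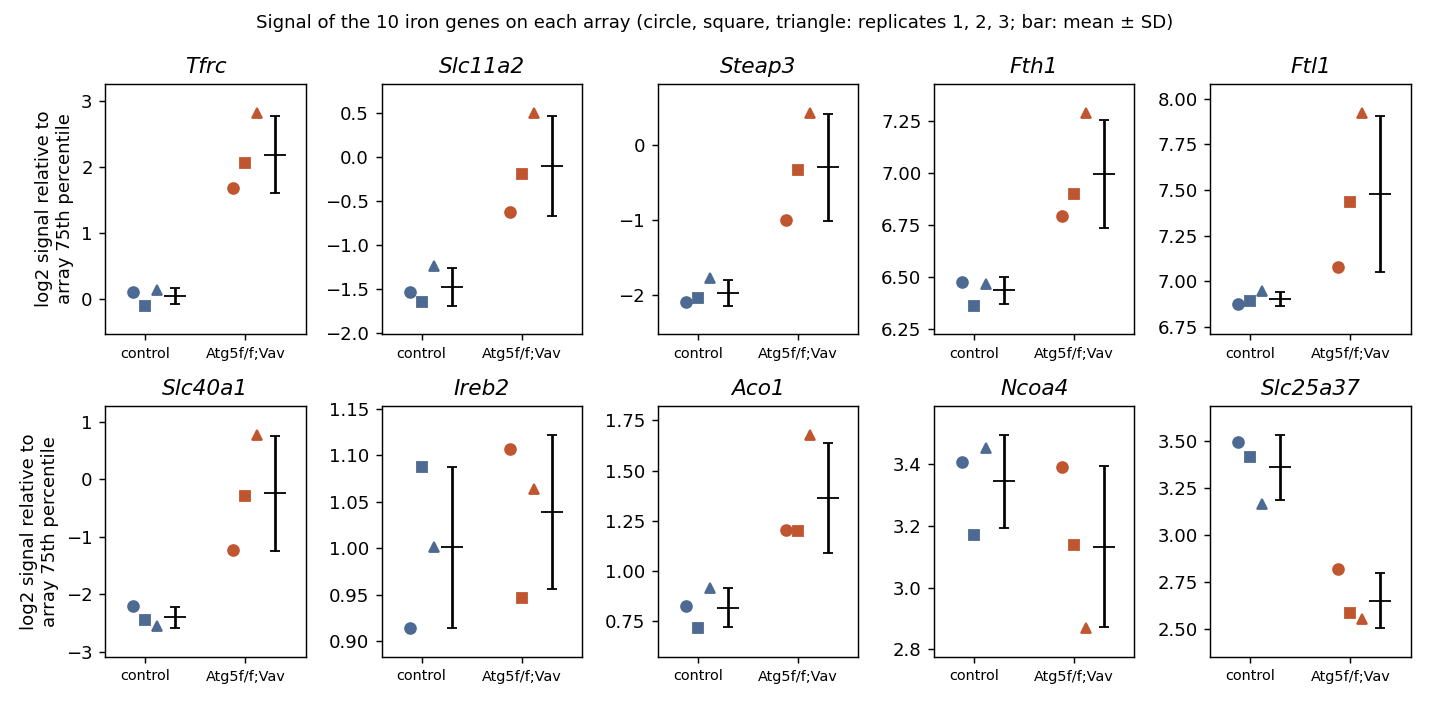
Log2 signal relative to the array's 75th percentile (y axis, a scale of its own in each panel) for the 10 genes in 3 control and 3 Atg5f/f;Vav arrays (x axis), with symbols for replicates and bars for mean ± SD. The groups do not overlap in 8 panels and overlap for Ireb2 and Ncoa4.

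The differences of the uptake genes were among the larger ones on the array. *Tfrc* encodes the receptor that brings transferrin-bound iron into the cell. Its probe at base 4288 (mm9 chromosome 16, 32632255 to 32632314) read 0.09, -0.10 and 0.13 on the control arrays. On the Atg5f/f;Vav arrays it read 1.67, 2.06 and 2.82. Every Atg5f/f;Vav array lay above every control array, and the spread was wider among the Atg5f/f;Vav arrays. The difference was 2.15, a 4.42-fold rise (standard error 0.28, limma adjusted p = 0.0114), larger than that of 99.5% of the genes tested.

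A *Tfrc* probe nearer the start, at base 1228 (chromosome 16, 32620470 to 32620529), read 0.26, 0.12 and -0.44 in controls and 0.77, 1.36 and 2.08 in Atg5f/f;Vav cells. It rose by 1.42 (standard error 0.35, adjusted p = 0.0243 in limma). The probe at base 4288 differed by 0.72 more between the groups than the probe at base 1228. The exact permutation test of that difference gave p = 0.1, the smallest that 3 arrays against 3 can give, and 0.175 after adjustment over the 7 within-array differences compared.

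*Slc11a2* encodes DMT1, the carrier that moves ferrous iron out of the endosome, and was read by 4 probes. The probe with the highest signal, at base 2961 (chromosome 15, 100218333 to 100218392), read -1.53, -1.65 and -1.24 in controls and -0.62, -0.19 and 0.51 in Atg5f/f;Vav cells. The groups did not overlap, and the difference was 1.37, or 2.59-fold (standard error 0.28, limma adjusted p = 0.0181). A probe at base 2082 of the same transcript rose by 1.63 (adjusted p = 0.0145 in limma). The remaining probe of that transcript, at base 253, was 0.96 higher with no overlap, but its limma adjusted p was 0.0536.

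A separate *Slc11a2* transcript, NM_001146161, had its own probe at base 4055 (chromosome 15, 100223347 to 100223406). It read -4.49, -3.66 and -3.60 in controls and -2.29, -1.72 and -0.78 in Atg5f/f;Vav cells. Signal for this transcript was well above background on all 3 arrays of each group, and it rose by 2.32 (standard error 0.41, limma adjusted p = 0.0157). The difference of this probe was 0.82 larger than that of the late probes of NM_008732, with p = 0.1 in the exact permutation test and 0.175 after adjustment. Both sizes rest on dim control readings, the lowest being -4.49 on control replicate 1.

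*Steap3* encodes the endosomal ferrireductase that reduces iron before DMT1 carries it. Its 1 probe (chromosome 1, 122123244 to 122123303) read -2.10, -2.04 and -1.78 in controls and -1.0, -0.34 and 0.43 in Atg5f/f;Vav cells. The arrays of the groups were fully apart. The difference was 1.67, or 3.18-fold (standard error 0.34, limma adjusted p = 0.0173), above that of 99.1% of the genes. The genes for the 3 steps of the transferrin route, receptor, reductase and carrier, therefore all passed the test as higher.

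*Slc40a1* encodes ferroportin, the iron exporter. Its probe at base 2980 (chromosome 1, 45965255 to 45965314) read -2.20, -2.44 and -2.56 in controls. In Atg5f/f;Vav cells it read -1.22, -0.28 and 0.77. No arrays overlapped, but the Atg5f/f;Vav arrays had an SD of 1.0, against 0.18 in controls. The difference was 2.15, or 4.44-fold (standard error 0.46, limma adjusted p = 0.0187). *Slc40a1* and the 3 genes of the transferrin route were thus higher in the same samples. Other uptake and export genes, given below, did not all rise.

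The ferritin subunit genes differed by less. *Fth1* encodes the heavy chain, which oxidises iron for storage, and its probe (chromosome 19, 10059485 to 10059544) read 6.48, 6.36 and 6.47 in controls and 6.79, 6.90 and 7.29 in Atg5f/f;Vav cells. The control arrays were tightly grouped and all lay lower. *Fth1* rose by 0.56, or 1.47-fold (standard error 0.15, limma adjusted p = 0.0320). With quantile normalisation the difference was 0.32 and did not pass, and with the percentile over probes detected on all arrays it was 0.35 and did not pass.

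*Ftl1* encodes the light chain, which helps the mineral core form. Its brighter probe, at base 906 (chromosome 7, 52713318 to 52713377), read 6.87, 6.89 and 6.94 in controls and 7.08, 7.43 and 7.92 in Atg5f/f;Vav cells. The groups did not overlap, yet the difference of 0.57 (standard error 0.21, 95% interval 0.076 to 1.07) had a limma adjusted p of 0.0717. The probe at base 462, which spans an exon junction, read 3.29, 3.24 and 3.22 against 3.77, 4.0 and 4.38. That probe rose by 0.80 (standard error 0.17, adjusted p = 0.0182 in limma). Within an array, the probe at base 906 minus that at base 462 changed by -0.23 between the groups (exact permutation p = 0.1, adjusted 0.175). The difference between *Fth1* and *Ftl1* within an array changed by -0.015 between the groups (exact permutation p = 0.9). Ferritin genes have near-identical processed copies in the mouse genome, and cross-hybridisation to them was not tested.

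**Figure D2:**
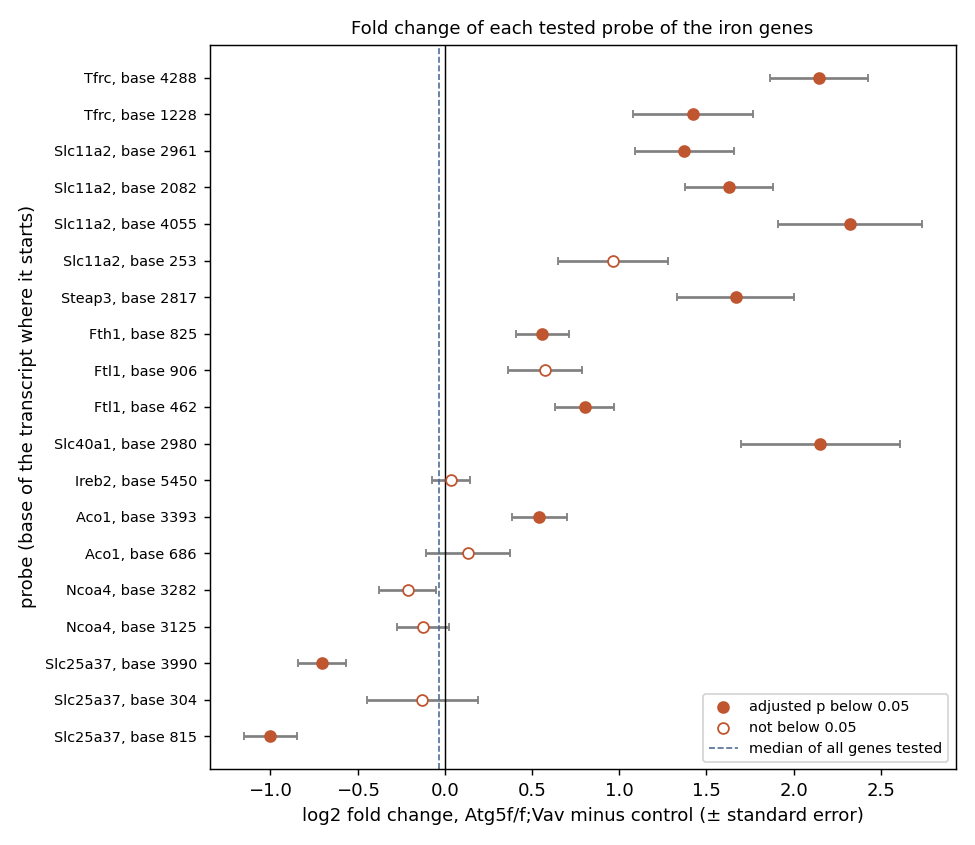
Log2 fold change, Atg5f/f;Vav minus control (x axis, bars are standard errors), for each of the 19 tested probes of the 10 genes (y axis, base of the transcript where the probe starts). Filled points have a limma adjusted p below 0.05, and the dashed line is the median of all genes tested, -0.032; the probes of Tfrc and Slc11a2 lie furthest right with Slc40a1 and Steap3.

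Of the genes for iron regulatory proteins, *Aco1* passed the test and *Ireb2* did not, and the difference between them was not tested. *Aco1*, which encodes IRP1, the cytosolic aconitase that turns into an RNA-binding protein when it loses its iron-sulphur cluster, read 0.82, 0.72 and 0.91 in controls at base 3393 (chromosome 4, 40145117 to 40145176). In Atg5f/f;Vav cells it read 1.21, 1.20 and 1.68. It rose by 0.54 (standard error 0.16, limma adjusted p = 0.0395) with no overlap between groups. A dimmer probe across an exon junction at base 686 overlapped between groups, with a difference of 0.13 and an adjusted p of 0.682 in limma. Within an array, the probe at base 3393 minus that at base 686 changed by 0.41 between the groups (exact permutation p = 0.3, adjusted 0.35). The mean of both probes differed by 0.34 and did not pass. The call at base 3393 was also lost with quantile normalisation (0.44, limma adjusted p = 0.058), with the percentile over probes detected on all arrays (0.34, limma adjusted p = 0.0914) and without a filter on dim probes (limma adjusted p = 0.0926).

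*Ireb2*, which encodes IRP2, read 0.91, 1.09 and 1.0 in controls and 1.11, 0.95 and 1.06 in Atg5f/f;Vav cells (chromosome 9, 54759984 to 54760043). These values interleave. The difference was 0.038 with a 95% interval of -0.22 to 0.30 and a limma adjusted p of 0.803. Its sign turned with quantile normalisation (-0.062) and with the percentile over probes detected on all arrays (-0.17).

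*Ncoa4* encodes the receptor that delivers ferritin to the autophagosome. Its brighter probe (chromosome 14, 32992281 to 32992340) read 3.41, 3.17 and 3.45 in controls and 3.39, 3.14 and 2.87 in Atg5f/f;Vav cells. The groups overlapped, with Atg5f/f;Vav replicate 3 the lowest array. The difference was -0.21 (95% interval -0.60 to 0.18, limma adjusted p = 0.335), and the other probe differed by -0.13 with an adjusted p of 0.525 in limma. The brighter probe differed by -0.50 (limma adjusted p = 0.0755) with quantile normalisation, by -0.42 (limma adjusted p = 0.0858) with the percentile over probes detected on all arrays, and by -0.080 without Atg5f/f;Vav replicate 3, and passed under none of these.

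*Slc25a37* encodes mitoferrin-1, which carries iron into mitochondria and is most used in erythroid cells. Its brightest probe (base 3990, chromosome 14, 69860020 to 69860079) read 3.49, 3.41 and 3.16 in controls and 2.82, 2.58 and 2.55 in Atg5f/f;Vav cells. All Atg5f/f;Vav arrays were below all controls. It fell by 0.71 (standard error 0.14, limma adjusted p = 0.0168), and the probe at base 815 fell by 1.0 (standard error 0.15, adjusted p = 0.0145 in limma). The probe at base 304 overlapped between groups, with a difference of -0.13 and a limma adjusted p of 0.768. Within an array, the probe at base 3990 minus that at base 304 changed by -0.58 between the groups (exact permutation p = 0.2, adjusted 0.28). The difference between *Tfrc* and *Slc25a37* on the same array changed by 2.85 between the groups (exact permutation p = 0.1, adjusted 0.175). As *Tfrc* was higher and *Slc25a37* lower without overlap, that p-value was fixed beforehand and adds nothing. It is still 1 of the 7 differences in the adjustment.

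The arrays of the Atg5f/f;Vav group did not move equally. Atg5f/f;Vav replicate 3 had the highest signal of its group for 6 of the 6 members called higher. Over the 6 arrays, the genes whose signal followed *Tfrc* most closely were *Smim4*, *Dtx3l* and *Exosc7*, with Pearson r from 0.999 to 0.9998, but 2758 of 18381 genes had an r over 0.95. For *Fth1* they were *Dimt1*, *Scrn3* and *Aatf*, and 2203 genes had an r over 0.95. For *Ncoa4* the closest named gene was *Golph3l* with r = 0.9977, followed by a pair of loci without a gene symbol, and 160 genes had an r over 0.95. These correlations describe 6 arrays in 2 groups and carry no test.

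The fall of *Slc25a37* and the rise of the uptake genes were set beside erythroid genes. Of 14 erythroid markers tested, 4 rose, 3 fell and 7 did not pass, beside 18.7% higher and 15.3% lower over all genes. *Gata1*, which encodes a master regulator of erythroid genes, rose by 3.0, and *Klf1*, which encodes another erythroid regulator, rose by 2.95. Genes of haemoglobin-making cells went the other way: *Slc4a1*, the band 3 anion exchanger gene, fell by 2.29, and *Hba-a1*, an alpha-globin gene, fell by 2.26. On control replicate 3 the signals of *Slc4a1* and *Hba-a1* lay below those of the other control arrays. The part of erythroid cells in the differences of *Tfrc*, *Slc11a2*, *Steap3*, *Slc40a1* and *Slc25a37* was not tested.

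**Figure D3:**
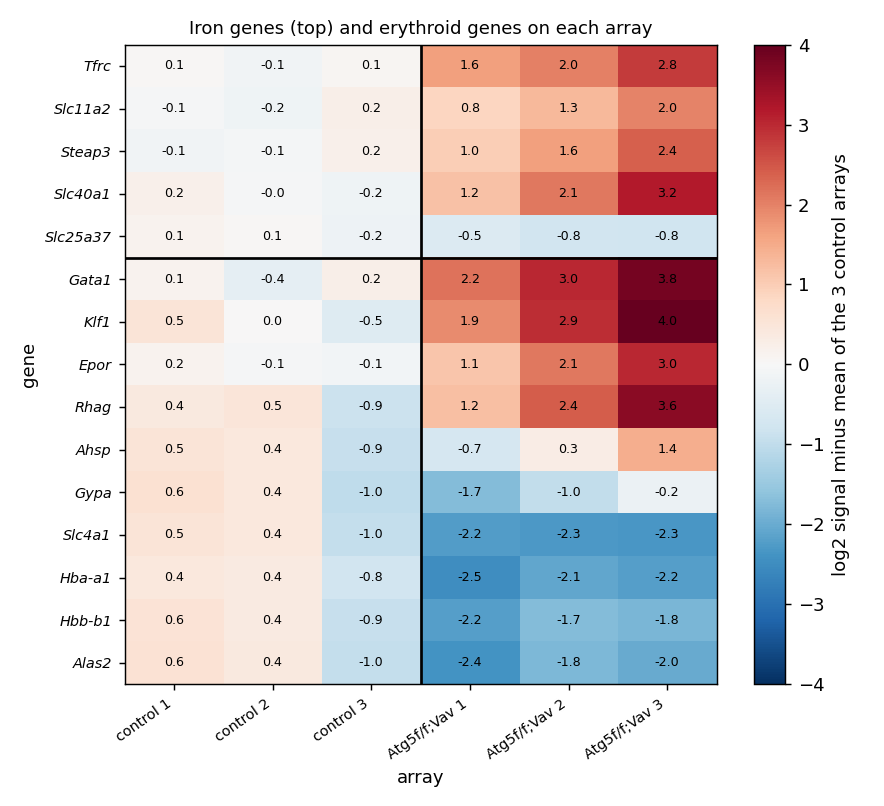
Log2 signal of 5 iron genes (top) and 10 erythroid genes (y axis) on each of the 6 arrays (x axis), as the difference from the mean of the 3 control arrays, given by colour and by the printed value. Genes other than Gata1, Klf1, Slc4a1, Hba-a1 and Alas2 in the lower block were chosen after their values were seen; Gata1 and Klf1 are higher and Slc4a1, Hba-a1 and Alas2 lower on all 3 Atg5f/f;Vav arrays.

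Macrophage markers were set beside *Slc40a1*, since macrophages recycle iron and are known for ferroportin. Of 12 macrophage markers, 7 were tested, 0 were higher and 1, the adhesion gene *Vcam1*, fell by 1.42, while *C1qa*, *C1qc*, *Mrc1*, *Siglec1* and *Timd4* did not pass the filter and 3 markers were above background on no array. The summed signal of the 7 was 5.08 to 7.33 in controls and 6.91 to 7.14 in Atg5f/f;Vav cells. *Csf1r*, named after its values were seen, was the brightest of them on every array and made up the largest part of that sum. *Spic*, also named after its values were seen, differed by -1.11 without overlap (limma adjusted p = 0.0579), and 4 of the 7 differences lay above 0. The top of the control range is that of control replicate 2. There *Marco*, named after its values were seen, read 0.28, against -4.30 and -3.41 on the other control arrays. The part of macrophages in the rise of *Slc40a1* was not tested. All 16 proliferation genes tested rose, with a median of 0.72 and a summed signal of 263.8 to 321.1 against 409.5 to 491.2, and their part in the rise of *Tfrc* was not tested. Of 6 stromal markers, 3 fell. *Col1a1*, a collagen gene, read -4.14, 3.23 and 2.95 on the control arrays and was not well above background in Atg5f/f;Vav cells. Taken on the control mean, the fall was at least 38.98-fold. That figure rests on control replicates 2 and 3, since control replicate 1 was low as well, and it is no bound for each control array. Of 9 LSK markers 1 rose and 4 fell, of 10 neutrophil markers 2 rose and 5 fell, and of 8 megakaryocyte markers 3 rose and 3 fell. Of 8 mast cell and eosinophil markers 2 rose and 1 fell, of 8 B cell markers 1 rose, and of 6 T and NK cell markers 0 passed. All these counts stand beside 18.7% of all genes called higher and 15.3% called lower, and several of the lists are near or below those shares. Without control replicate 1 or 2, 7 or 4 of the 92 marker genes tested passed in limma, against 49 with all arrays.

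Beyond the members, 8 lists of other iron genes held 87 genes, of which 72 were tested, 28 were higher and 7 were lower. That is 48.6% called, beside 34.1% of all genes, and the median difference was 0.28. With quantile normalisation 11 were higher and 8 lower, which is 26.4% called beside 25.5% of all genes. With the percentile over probes detected on all arrays 15 were higher and 12 lower, or 37.5% beside 40.5% of all genes, so the larger share among the iron genes depended on the scaling. Without control replicate 1 or 2, 0 of them passed in limma, with 35 and 33 at an unadjusted p below 0.05, and without Atg5f/f;Vav replicate 2, 23 passed. Genes that build iron-sulphur clusters held most of the 28 rises. The counts and medians by list that follow are those of the main scaling. They were not taken under the other scalings, where 11 and 15 iron genes were higher in all. Of 20 mitochondrial genes for iron and iron-sulphur clusters, 10 rose and 0 fell, with a median of 0.48. The largest rises were those of *Glrx5* (1.11), the glutaredoxin that passes clusters on, *Hspa9* (0.88), the chaperone of that step, and *Lyrm4* (0.87), which steadies the cysteine desulphurase. Of 11 cytosolic cluster genes, 7 rose and 0 fell, led by *Nubp2* (1.12), *Nubp1* (0.87) and *Ciapin1* (0.83).

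**Figure D4:**
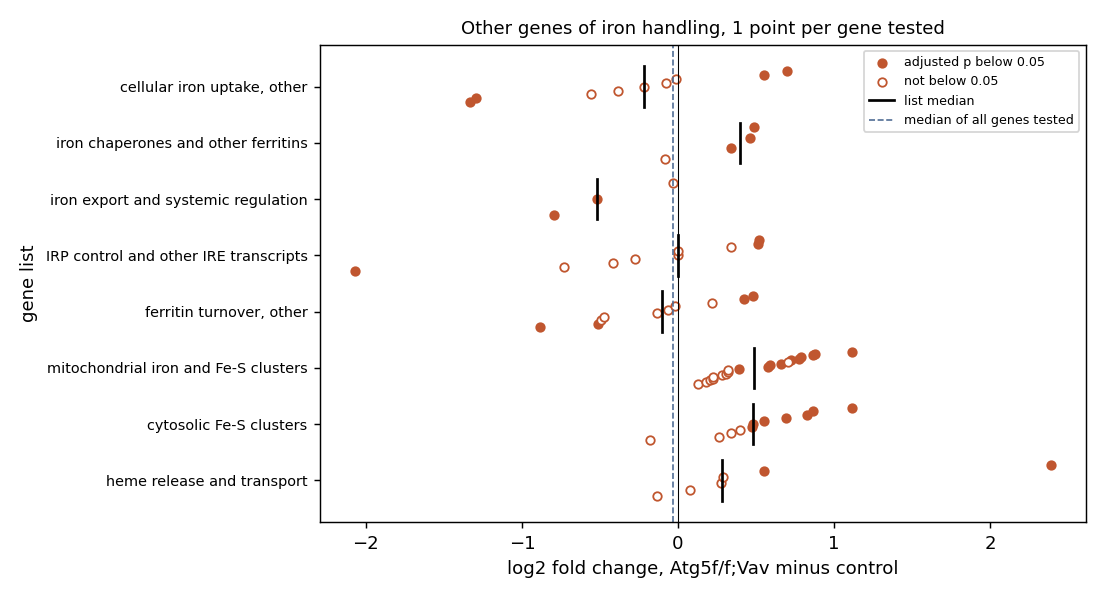
Log2 fold change, Atg5f/f;Vav minus control (x axis), of every tested gene in 8 lists of other iron genes (y axis). Filled points have a limma adjusted p below 0.05 and black bars are list medians; the mitochondrial and cytosolic cluster lists have medians of 0.48, and the dashed line is the median of all genes, -0.032.

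Other uptake genes were mixed. Of 9 tested, *Slc39a8*, a metal importer gene, rose by 0.70, and *Tfr2*, a relative of the receptor, rose by 0.55. *Slc22a17* and *Lcn2*, the genes of the lipocalin-2 receptor and of lipocalin-2 itself, fell by 1.33 and 1.29. Of 4 chaperone genes tested, *Pcbp1*, *Pcbp3* and *Pcbp2* rose by 0.49, 0.46 and 0.34. *Pcbp1* and *Pcbp2* are known to hand iron to ferritin. Of 10 listed genes of export and systemic control, 3 were tested, and *Heph*, a ferroxidase gene, fell by 0.80 and *Neo1* by 0.52.

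Among 9 genes that control iron regulatory proteins or carry their hairpins, *Rbx1*, a subunit of the ubiquitin ligase that turns over IRP2, rose by 0.51. *Alas2*, the erythroid enzyme of haem synthesis, read 1.66, 1.48 and 0.14 in controls and -1.31, -0.69 and -0.94 in Atg5f/f;Vav cells, a fall of 2.07. *Fbxl5*, which marks IRP2 for degradation and is named here after its values were seen, differed by -0.42 with a limma adjusted p of 0.0624. Among 10 other genes of ferritin turnover, the lysosomal membrane genes *Lamp2* and *Lamp1* rose by 0.48 and 0.42, and the autophagy genes *Atg9a* and *Rb1cc1* fell by 0.88 and 0.52. Of 6 haem genes tested, the biliverdin reductase genes *Blvrb* and *Blvra* rose by 2.39 and 0.55. *Hmox1*, the haem oxygenase gene, named after its values were seen, differed by -0.14 with an adjusted p of 0.657 in limma.

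RefSeq promoter windows (GRCm38, 250 bases before to 50 after a start) were found for 7 of the 10 members, in 14 windows. They were searched on both strands for 4 motifs. ACGTG, the core bound by hypoxia-inducible factors, was in 19.6% of all 32851 windows and in 4 of the 14 member windows, of *Tfrc* and *Ncoa4*. TGACNNNGC, the antioxidant response element, was in 12.4% of all windows and in 1 member window, of *Ncoa4*. AGATAA, bound by GATA factors, was in 11.2% of all windows and in 1 member window, of *Steap3*. TATAAA was in 13.6% of all windows and in 3 member windows, of *Fth1*, *Ftl1* and *Ncoa4*. Excerpts are given for members that rose and for the turnover receptor, with the match in capitals; for *Steap3* the match is on the opposite strand.
Tfrc, chr16:32608874-32608923, plus strand: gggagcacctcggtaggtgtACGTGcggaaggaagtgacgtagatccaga
Steap3, chr1:120271096-120271145, minus-strand gene: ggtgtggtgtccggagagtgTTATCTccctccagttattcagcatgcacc
Ncoa4, chr14:32165725-32165774, plus strand: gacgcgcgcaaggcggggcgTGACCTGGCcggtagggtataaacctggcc
A match describes letters in the window only.

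**Figure D5:**
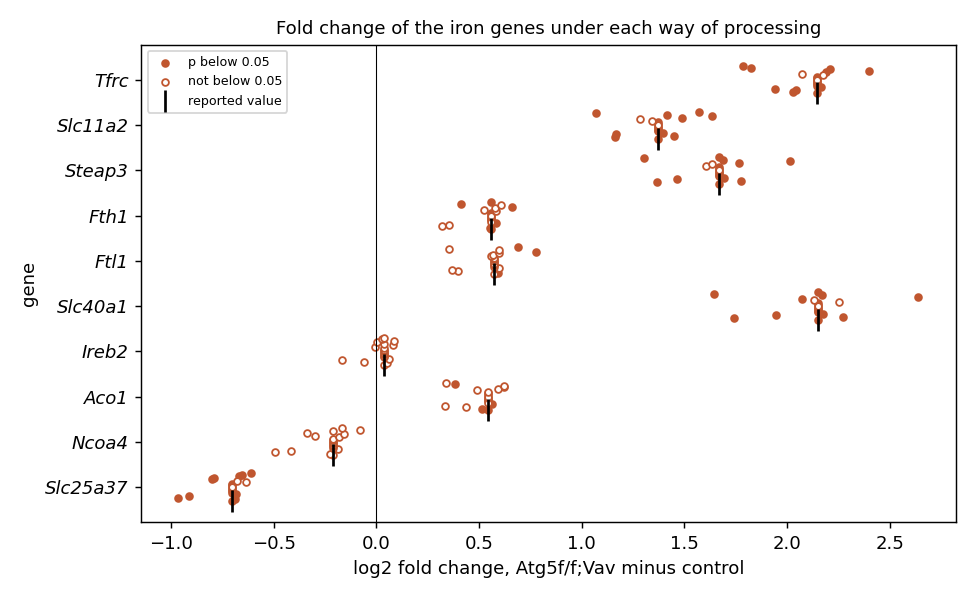
Log2 fold change, Atg5f/f;Vav minus control (x axis), of each of the 10 genes (y axis) under every way of processing tried, with filled points where p is below 0.05 and a black bar at the value given in the text. Tfrc, Slc11a2, Steap3 and Slc40a1 stay above 1 throughout, and the values of Ireb2 lie on both sides of 0.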

How the data were processed

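Per the labels, RNA of 3 control and 3 Atg5f/f;Vav LSK samples was hybridised to 1-colour Agilent arrays. The authors deposited spot intensity, corrected for background by Agilent Feature Extraction 12.0.3.1 and not scaled between arrays. They also deposited a table in which each intensity is divided by the 75th percentile of its array. Here log2 intensity was used, less the 75th percentile of the 59305 non-control spots of the array. The scanner's outlier spots (64 to 81 on an array) were dropped, and replicate spots were averaged. Of 56605 probes, 32074 lay well above background on 3 or more arrays and entered limma (version 3.58.1, R 4.3.3; lmFit, eBayes, 2-sided). P-values were adjusted by Benjamini-Hochberg over all of them, with a threshold of 0.05. A gene is represented by its brightest probe. On simulated data for this comparison (32066 probes), limma recovered 44 of 100 log2 changes of 1 and 81 of 100 log2 changes of 2, with 6 false calls. Few probes were changed in that simulation, whereas limma called 34.4% of the real probes. Its rates may therefore not hold for the real data. The number of arrays limits the precision.

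The members and lists were chosen with earlier results of these data known. Named genes are all members, up to 3 each way per iron list and 2 per marker list by size of change, the gate markers, *Atg5*, and the 3 genes most like *Tfrc*, *Fth1* and *Ncoa4*; 1 gene under this rule is not reported here. Probe coordinates are those of mm9 in the deposited files. Results were recomputed with quantile normalisation, normexp correction of the background (offset 50), a percentile from probes seen on every array, the authors' table, no filter or one on all 6 arrays, outlier spots retained, a trend in eBayes, the methods' t-test, the mean of a gene's probes, the replicate number as a block, and leaving out each array. With 1 slide scanned once, neither slide nor scan could enter a fit.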

Additional observations from a re-analysis of the deposited data

Results flagged for a closer look

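A pair of member probes too dim to be tested gave signal on Atg5f/f;Vav arrays and on no control array. The *Slc40a1* probe of transcript ENSMUST00000186755 was well above background on 1 Atg5f/f;Vav array, at -3.30, and on 0 control arrays. The *Slc25a37* probe of AK034948 was well above background on 2 Atg5f/f;Vav arrays, with a highest value of -3.50, and on 0 control arrays, which read -6.99, -6.94 and -7.18. This probe lies 178 kb from the nearest of the tested *Slc25a37* probes on mm9, carries the gene's name only by the array's annotation, and read higher where the called probes of the gene read lower. Neither difference was tested.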

How the results depend on the processing

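*Tfrc*, *Slc11a2*, *Steap3*, *Slc40a1* and *Slc25a37* kept their direction under every alternative, and lost the call only with the methods' t-test after Benjamini-Hochberg adjustment and without control replicate 1 or 2. *Fth1* and *Aco1* lost it under 8 and 9 of 18 alternatives, and *Ftl1* passed under 4. *Ireb2* turned to -0.062 with quantile normalisation and -0.17 with the percentile over probes detected on all arrays, and ranged from -0.0054 (without control replicate 1) to 0.084 with 1 array left out. Limma called 11024 probes, 7 members, 35 iron-list genes and 49 marker genes. As separate counts, the methods' t-test called 0 of each after adjustment and 13541, 7, 49 and 45 at an unadjusted p below 0.05. Without a filter the counts were 4538 probes, 11 iron-list and 24 marker genes, and quantile normalisation gave 19 iron-list genes. With 1 array left out the ranges were 251 to 10304 probes, 0 to 8 members, 0 to 33 iron-list genes and 4 to 48 marker genes. The low ends are those without control replicate 1 (330 probes, 0 members, 0 iron-list and 7 marker genes) or control replicate 2 (251, 0, 0 and 4), and without Atg5f/f;Vav replicate 2 there were 23 iron-list genes. The cause was not tested. With the replicate number as a block, limma called 10173 probes, 7 members, 33 iron-list and 49 marker genes; the samples share only a number (correlation of deviations -0.07, 0.19 and 0.11 for the 3 pairs). Dim probes limit what could be tested.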
